A study of Mus musculus with 8 samples.

Results

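The set described here holds 9 well-known long noncoding RNAs (lncRNAs) of the mouse retina: Malat1, Neat1, Meg3, Miat, Tug1, Gas5, Snhg11, Six3os1 and Vax2os. They are the 9 rows of a deposited table of 57010 genes that carry these names, and all 9 were among the 16118 genes with at least 1 transcript per 1000000 (TPM) in at least 4 libraries. The RNA came from retinas of C57BL/6J mice at 17 days of age, all with OIR (oxygen-induced retinopathy), in which high oxygen removes retinal capillaries and abnormal vessels grow after return to room air. The 4 control libraries (AAV_NC, treatment label control) are from mice given a control scAAV, a self-complementary viral vector. The 4 knockdown libraries (AAV_sh) are from mice given an scAAV that targets lncRNA-MM2P. Their treatment label reads AAV KO, while the design text calls it a knockdown. Both groups thus share the strain, the age, the retinopathy and an scAAV, and no untreated retina was analysed here. The sources used here name neither the promoter of the vector nor the cells it reached. The labels do not say whether a library is 1 animal or a pool, so p-values measure the spread between these samples, which may be partly technical. Sex-linked transcripts, given below, differ between libraries of the same group.

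Long noncoding RNAs are transcripts that are not translated into a known protein and act, where a role is known, as RNA. Malat1, Neat1 and Miat stay in the nucleus: Malat1 collects in nuclear speckles, which store splicing factors, Neat1 is the scaffold of paraspeckles, and Miat (also called Gomafu or Rncr2) forms separate foci in neurons. Meg3 is expressed from the maternal chromosome of the imprinted Dlk1-Dio3 region. Gas5 and Snhg11 are host genes whose introns yield small nucleolar RNAs (snoRNAs), which guide the modification of other RNAs. Tug1 was first found in retinal cells treated with taurine and is needed for normal photoreceptor development in the mouse. Six3os1 and Vax2os are transcribed from the strand opposite to Six3 and Vax2, homeobox genes that pattern the eye.

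The promoters of the 4 RNAs that varied most between libraries, Meg3, Snhg11, Miat and Malat1, are shown with that of Gas5, which varied little, so that their start regions can be compared. Each runs from 250 bases before to 50 bases after the annotated start, 5′ to 3′ on the gene's strand, from RefSeq on GRCm38.p6, where 8 of the 9 RNAs had an entry. Capitals mark matches on either strand to TGACGTCA (cAMP response element), its core TGACGT (which the full element holds on both strands), and the TATA box, spelled TATAAA. They likewise mark the CCAAT box, named for its letters, and the GC box, which is searched here as GGGCGG. They also mark, in Gas5 and Miat, an unbroken run of C and T that begins with a C at the start site.
Meg3 (chr12:109540746-109541045, + strand): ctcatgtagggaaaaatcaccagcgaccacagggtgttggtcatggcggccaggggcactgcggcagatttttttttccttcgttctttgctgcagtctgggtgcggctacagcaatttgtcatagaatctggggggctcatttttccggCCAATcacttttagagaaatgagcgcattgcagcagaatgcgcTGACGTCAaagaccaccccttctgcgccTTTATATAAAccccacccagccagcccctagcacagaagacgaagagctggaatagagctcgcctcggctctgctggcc
Snhg11 (chr2:158375463-158375762, + strand): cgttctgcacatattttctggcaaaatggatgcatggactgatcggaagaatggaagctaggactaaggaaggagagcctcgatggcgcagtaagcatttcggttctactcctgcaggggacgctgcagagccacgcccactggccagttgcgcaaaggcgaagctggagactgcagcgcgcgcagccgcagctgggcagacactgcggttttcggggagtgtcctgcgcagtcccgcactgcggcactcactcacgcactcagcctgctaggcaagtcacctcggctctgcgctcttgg
Miat (chr5:112228899-112229198, - strand): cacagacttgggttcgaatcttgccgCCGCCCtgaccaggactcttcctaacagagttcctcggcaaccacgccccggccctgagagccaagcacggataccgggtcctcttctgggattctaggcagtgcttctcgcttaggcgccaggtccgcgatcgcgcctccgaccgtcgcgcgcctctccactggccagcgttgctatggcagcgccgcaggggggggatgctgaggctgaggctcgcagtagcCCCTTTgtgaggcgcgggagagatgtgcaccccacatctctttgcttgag
Malat1 (chr19:5802623-5802922, - strand): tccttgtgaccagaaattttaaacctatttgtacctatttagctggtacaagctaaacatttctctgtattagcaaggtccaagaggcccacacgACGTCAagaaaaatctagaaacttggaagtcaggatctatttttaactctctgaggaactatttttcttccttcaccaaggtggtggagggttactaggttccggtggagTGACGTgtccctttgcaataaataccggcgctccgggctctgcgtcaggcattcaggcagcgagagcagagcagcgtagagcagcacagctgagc
Gas5, second annotated start (chr1:161034916-161035215, + strand): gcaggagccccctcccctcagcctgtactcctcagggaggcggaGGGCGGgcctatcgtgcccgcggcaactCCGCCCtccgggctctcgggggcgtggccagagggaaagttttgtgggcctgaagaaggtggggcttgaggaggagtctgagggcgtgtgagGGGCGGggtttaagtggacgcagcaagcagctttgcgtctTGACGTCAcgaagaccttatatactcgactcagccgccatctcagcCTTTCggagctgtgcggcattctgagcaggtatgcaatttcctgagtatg

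The Meg3 window shown, the first of 2, held TGACGTCA 57 bases, CCAAT 100 bases and TATAAA 25 bases before the start, with TTTATA, the same box on the other strand, overlapping it at 29 bases. The full element TGACGTCA is present in 1.79% of 32851 annotated promoter windows of the same length, TATAAA in 13.6%, CCAAT in 37.4% and GGGCGG in 35.7%. Gas5 had TGACGTCA 46 bases before its second annotated start, and Malat1 had that core at 45 and 155 bases, a motif found in 7.51% of windows. Snhg11 held none of the 5 motifs in these letters. Miat held GGGCGG on the other strand, 224 bases before its start. At the start itself Gas5 began with CTTTC, a C followed by pyrimidines, the form of the 5′ terminal oligopyrimidine (TOP) tract of transcripts for the translation machinery. Such a start, with at least 4 pyrimidines after the C, was present in 2.51% of all windows, in Miat, and in 3 of 18 snoRNA host or related lncRNAs with an entry (Gas5, Snhg7 and Snhg8). It was found in 2 of 17 genes of the ribosomal protein list. Only the annotated start base was searched, so a tract that begins at another base was not counted. The second Meg3 window held none of the motifs, and the first Gas5 window held GGGCGG but neither TGACGTCA nor a pyrimidine start. These matches are descriptions of the letters and not of binding.

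Miat carries repeats of TACTAAC, the branch point sequence to which splicing factor 1 binds, as background. Its longest annotated transcript held 6 copies in 9163 bases, and 0 of 1716 transcripts of other genes within 20% of that length held as many. The other 8 RNAs held 0 copies, apart from 1 in Neat1. The copies lie in 2 stretches of 152 and 61 bases, shown here with the repeat in capitals because they set Miat apart in sequence from the RNAs it moved with (GENCODE M21 on GRCm38).
Miat, first stretch (chr5:112217309-112217460, - strand): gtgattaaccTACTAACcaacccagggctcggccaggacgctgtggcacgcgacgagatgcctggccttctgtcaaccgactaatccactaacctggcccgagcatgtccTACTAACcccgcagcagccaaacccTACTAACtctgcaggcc
Miat, second stretch (chr5:112216752-112216812, - strand): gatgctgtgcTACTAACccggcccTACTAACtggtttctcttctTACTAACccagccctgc

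Markers of the retina were present throughout, and lens markers moved with the group. Summed TPM of 10 rod markers was 35810 to 37537 in the controls and 33460 to 36117 in the knockdown libraries, and that of 8 Müller glia markers was 5171 to 5433 and 5079 to 5454. All markers of the rod, cone, bipolar, amacrine, ganglion, Müller, endothelial and microglial lists passed the filter. The 8 lens markers summed to 2.83 to 5.44 TPM in the controls and 27.98 to 313 TPM in the knockdown, with the highest value in knockdown 3, and their part in the results was not tested. Erythrocyte markers summed to 315 to 462 TPM and 409 to 640 TPM, and ganglion cell markers were lowest in knockdown 1, at 1118 TPM against 1308 to 1504 TPM elsewhere. The total estimated count per library (in units of 1000000) was 20.5 to 21.4 in the controls and 16.03 to 20.2 in the knockdown. In bulk tissue, fewer cells of a type and less RNA per cell cannot be told apart. Xist had 16 counts in control 3, where the Y-linked Ddx3y had 1919. Ddx3y had 0 counts in 3 libraries (control 1, knockdown 1 and knockdown 3), where Xist had 38493 to 49127. Controls 2 and 4 and knockdown libraries 2 and 4 had both, with Xist at 21026 to 28658 and Ddx3y at 814 to 1038 counts. The libraries thus differ in sex-linked transcripts, and some hold those of both sexes, while the labels give no sex. With Ddx3y as a covariate in the test between groups given below, 7 of all tested genes passed, against 10 without it. In both fits 0 RNAs of the set passed. The part of this difference in the ratios and in the spread within groups was not tested. The targeted RNA, listed as Mm2pr, stood at 0.441 ± 0.5002 TPM (SD, n = 4) in the controls and 0.414 ± 0.712 TPM (SD, n = 4) in the knockdown, too low to check the labels.

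Levels spanned a wide range, from Malat1 at 774 TPM to Neat1 at 2.19 TPM (means over the 8 libraries). The order was Malat1, Tug1 (285 TPM), Snhg11 (115 TPM), Meg3 (89.1 TPM), Vax2os (62.5 TPM), Six3os1 (55.0 TPM), Gas5 (40.7 TPM), Miat (8.53 TPM) and Neat1. Malat1 ranked 112 among the 16118 tested genes, Tug1 474 and Neat1 14210, so the set includes RNAs that are not abundant in these libraries by this measure. Neighbours in the order were the same way round in all 8 libraries, except that Meg3 was above Vax2os in 7. The ranges over the libraries overlapped for Snhg11 and Meg3, for Meg3 and Vax2os and for Vax2os and Six3os1. The place of Tug1 depended on its length: the table gives 1612 bases, 16.6% of its 9734 annotated exonic bases in GENCODE M21. With that union of exons its mean was 47.3 TPM, which is place 4, and with the longest transcript (6719 bases) 68.5 TPM, also place 4. With the union of exons Six3os1 stood at 25.9 TPM, below Gas5 at 36.6 TPM, and Vax2os stood at 46.98 TPM. With the longest transcript Gas5 had 53.8 TPM. For Neat1 the table's 21163 bases cover the long isoform. Together the 9 RNAs took 0.271% to 0.435% of all counts in a library, of which Malat1 alone took 0.173% to 0.263%.

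**Figure D1:**
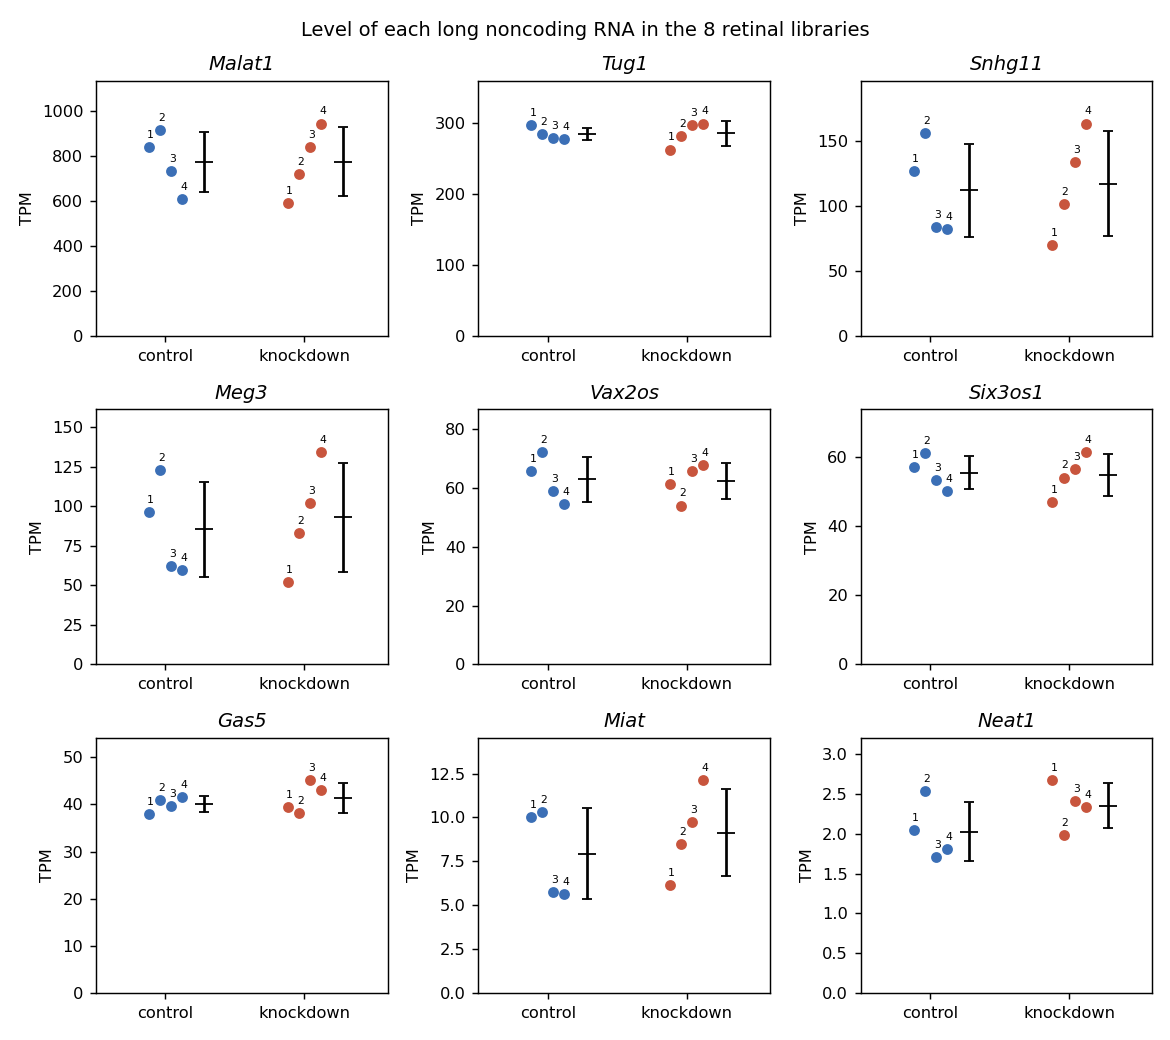
TPM (vertical axes, from 0) of each RNA in the 4 control and 4 knockdown libraries, numbered by replicate, with the mean and SD of each group as a black bar. The groups overlap in every panel, and Meg3, Snhg11 and Miat show the widest spread within a group, while Tug1 stays between 263 and 299.6 TPM.

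None of the 9 RNAs passed the test for a difference between knockdown and control. In edgeR's quasi-likelihood test 0 of 9 were called at an adjusted p under 0.05, where 10 of all 16118 tested genes were (0.062%), 7 higher in the knockdown (0.0434%) and 3 lower (0.0186%). At an unadjusted p under 0.05 there were 0 of 9 (5.27% of all tested genes), and DESeq2 and limma on log2(TPM + 1) called 0 as well (0.279% and 0.0% of all tested genes), with 0 of 9 at an unadjusted p under 0.05 in either (4.71% of all tested genes in DESeq2 and 5.29% in limma). Log2 fold changes were positive for 5 and negative for 4 (48.2% of all tested genes were negative), with a median of 0.04 against 0.00 over all tested genes, and edgeR adjusted p-values lay between 0.951 and 0.9997. No RNA had groups without overlap in TPM, which 2.95% of tested genes had. The 95% intervals lay within 2-fold in either direction for all 9 and within 1.5-fold for 6, the exceptions being Meg3, Miat and Snhg11.

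**Figure D2:**
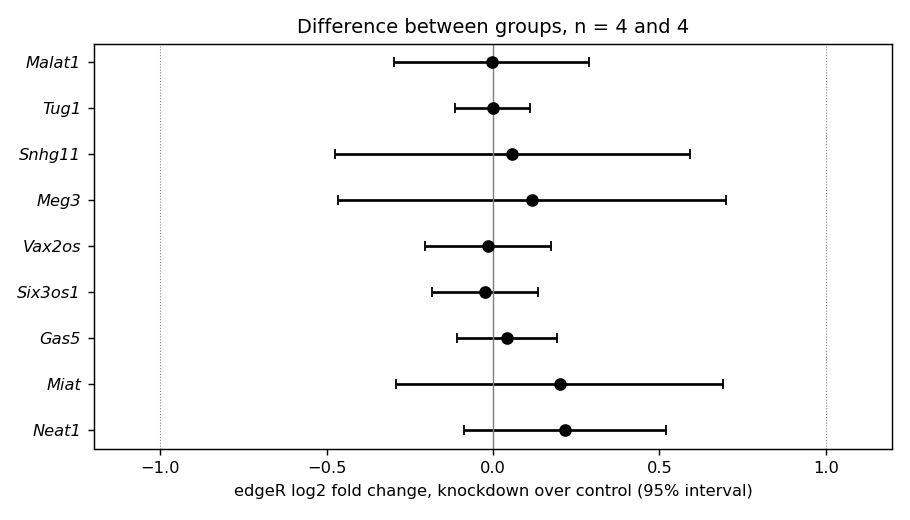
edgeR log2 fold change of knockdown over control for each RNA (points) with its 95% interval (bars), ordered by level, with dotted lines at a 2-fold difference. Every interval includes 0, and those of Meg3, Snhg11 and Miat are the widest of the 9.

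Among the RNAs of nuclear bodies, Malat1 (ENSMUSG00000092341; chromosome 19, 5795690 to 5802672, minus strand) is a single-exon speckle RNA in its main form. Its level was 840, 916.5, 731 and 609 TPM in controls 1 to 4, and 591, 720, 841 and 944 TPM in knockdown libraries 1 to 4. Knockdown 1 was the lowest and knockdown 4 the highest of all 8, and the group means were nearly equal, at 774 ± 134 and 774 ± 152 TPM (SD, n = 4). The log2 fold change was -0.00 (SE 0.12, 95% interval -0.30 to 0.29, edgeR adjusted p = 0.999). Neat1, its neighbour on the same strand (ENSMUSG00000092274; chromosome 19, 5824708 to 5845478), builds paraspeckles with proteins such as Sfpq and Pspc1. It had 2.05, 2.54, 1.71 and 1.81 TPM in the controls and 2.67, 1.99, 2.41 and 2.34 TPM in the knockdown. Knockdown 1, lowest for Malat1, was here the highest of the 8. The log2 fold change of 0.22 (SE 0.12, interval -0.09 to 0.52, edgeR adjusted p = 0.951) was the largest of the 9 and did not pass. Without knockdown 1 it was 0.13, below Miat at 0.34 and Meg3 at 0.30.

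Miat (ENSMUSG00000097767; chromosome 5, 112213228 to 112229395, minus strand) had 10.03, 10.3, 5.765 and 5.65 TPM in the controls and 6.14, 8.51, 9.74 and 12.1 TPM in the knockdown. Controls 3 and 4 and knockdown 1 were low, and the other 5 libraries had at least 8.51 TPM. Its log2 fold change was 0.20 (SE 0.20, interval -0.29 to 0.69, edgeR adjusted p = 0.989). Part of the count is of uncertain origin, since the opposite-strand gene Gm26953 covers 24.3% of the exonic bases of Miat and no source used here states the strand setting of the counting.

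Of 27 tested proteins of nuclear bodies, 0 passed the test in either direction, with 20 positive and 7 negative log2 fold changes and a median of 0.04 (0.00 over all tested genes). The splicing factor gene Srsf5, the most abundant of the list, had 899.6 ± 115 TPM in the controls and 936 ± 129 TPM in the knockdown (SD, n = 4), and Srsf1 had 718 ± 64.4 and 758 ± 103 TPM. The smallest unadjusted p-values of the list were those of the paraspeckle genes Pspc1, at 25.7 ± 1.11 and 29.7 ± 2.36 TPM (edgeR adjusted p = 0.664), and Sfpq, at 195 ± 12.4 and 210.1 ± 11.2 TPM (edgeR adjusted p = 0.930).

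Meg3 and Snhg11, an imprinted RNA and a snoRNA host, were the most variable of the set. Meg3 (ENSMUSG00000021268; chromosome 12, 109541001 to 109571726, plus strand) had 96.4, 123, 62.2 and 59.6 TPM in the controls and 52.3, 83.0, 102 and 134 TPM in the knockdown. The highest and the lowest library, both of the knockdown group, differed 2.57-fold. The log2 fold change was 0.12 (SE 0.24, interval -0.46 to 0.70, edgeR adjusted p = 0.997). Snhg11 (ENSMUSG00000044349; chromosome 2, 158375638 to 158386145, plus strand) had 127, 156, 83.9 and 81.8 TPM in the controls and 69.6, 101, 134 and 163 TPM in the knockdown. The 8 libraries fell in the same order as for Meg3. Its log2 fold change was 0.06 (SE 0.22, interval -0.47 to 0.59, edgeR adjusted p = 0.997). GENCODE M21 lists Snhg11 as protein coding and RefSeq as a lncRNA, and 8.29% of the exonic bases of Meg3 are shared with other annotated genes.

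Rian, the next RNA of the imprinted region and a host of many snoRNAs, did not show the spread of Meg3. Its level was 76.1, 77.9, 69.95 and 70.35 TPM in the controls and 58.2, 72.9, 83.7 and 79.3 TPM in the knockdown. The Meg3 to Rian ratio ran from 0.848 to 1.58 in the controls and from 0.898 to 1.69 in the knockdown, overlapping between the groups (exact two-sided permutation p = 0.657, adjusted over 6 ratios 0.789). Of the 6 tested genes other than Meg3 on the Dlk1-Dio3 list, 0 passed the test, 1 log2 fold change was positive and 5 were negative, with a median of -0.02. The adaptor gene Begain had 32.5 ± 4.59 and 32.04 ± 1.75 TPM (SD, n = 4). Dio3, the thyroid hormone deiodinase gene at the far end of the region, had 1.38 ± 0.607 and 1.76 ± 0.296 TPM, and Wdr25 had 3.95 ± 0.556 and 3.73 ± 0.635 TPM.

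Gas5 (ENSMUSG00000053332; chromosome 1, 161034422 to 161038539, plus strand) was steady. It had 37.9, 40.9, 39.8 and 41.7 TPM in the controls and 39.4, 38.2, 45.1 and 43.04 TPM in the knockdown, a log2 fold change of 0.04 (SE 0.06, interval -0.11 to 0.19, edgeR adjusted p = 0.997). The library order differed from that of Snhg11, its fellow snoRNA host, and the Gas5 to Snhg11 ratio ran from 0.262 to 0.509 in the controls and 0.264 to 0.566 in the knockdown (exact two-sided permutation p = 1.0). Of 17 further snoRNA hosts and related lncRNAs 0 passed the test, with 10 positive and 7 negative log2 fold changes and a median of 0.07. Snhg5 had the smallest p of the list, with 13.8 ± 1.04 TPM in the controls and 16.7 ± 1.21 TPM in the knockdown (edgeR adjusted p = 0.822), followed by Dancr at 0.980 ± 0.0816 and 1.37 ± 0.289 TPM (0.951 in edgeR). The most abundant were Snhg8, at 36.5 ± 7.38 and 41.6 ± 7.10 TPM, and Snhg14, a neuronal host in the Prader-Willi region, at 35.9 ± 6.90 and 40.1 ± 8.97 TPM. Among 24 genes of the ribosomal protein and translation list, many of whose messengers carry TOP tracts, 0 passed, with a median of 0.01. Eef1a1, an elongation factor gene and the most abundant of them, had 2891 ± 122 and 2886 ± 229 TPM, and Rpl7 had 938 ± 64.7 and 947 ± 93.0 TPM. Rpl5, at 78.7 ± 1.56 and 83.4 ± 2.80 TPM, and Rpl23, at 363 ± 29.6 and 389 ± 21.01 TPM, had the smallest p-values (edgeR adjusted p = 0.971 and 0.989).

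Tug1 (ENSMUSG00000056579; chromosome 11, 3639785 to 3649673, minus strand) was the steadiest of the set. It had 297, 285, 279 and 278 TPM in the controls and 263, 282, 298 and 299.6 TPM in the knockdown, so that the highest and lowest library differed 1.14-fold. The log2 fold change was -0.00 (SE 0.05, interval -0.11 to 0.11, edgeR adjusted p = 0.9997). Tug1 starts head to head with Morc2a, a gene for a chromatin ATPase, and 483 of its exonic bases are shared with it on the opposite strand. Its counts carried fractions in all 8 libraries. The Tug1 to Morc2a ratio was 8.15 to 9.73 in the controls and 8.74 to 9.23 in the knockdown (exact two-sided permutation p = 0.629, adjusted over 6 ratios 0.789).

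The eye-field antisense RNAs lay in the middle of the set. Six3os1 (ENSMUSG00000093460; chromosome 17, 85600651 to 85618398, minus strand) had 57.1, 61.03, 53.2 and 50.2 TPM in the controls and 46.9, 53.9, 56.3 and 61.3 TPM in the knockdown. The library order was close to that of Meg3 but the range was narrow, 1.31-fold from lowest to highest. Its log2 fold change was -0.02 (SE 0.06, interval -0.18 to 0.13, edgeR adjusted p = 0.997). Vax2os (ENSMUSG00000085794; chromosome 6, 83692806 to 83712201, minus strand), which in the mouse acts on photoreceptor progenitors, had 65.5, 72.1, 59.0 and 54.6 TPM in the controls and 61.2, 54.0, 65.8 and 67.8 TPM in the knockdown. Control 2 was the highest and knockdown 2 the lowest, and the log2 fold change was -0.02 (SE 0.08, interval -0.20 to 0.17, edgeR adjusted p = 0.998).

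Relative to their sense partners, both antisense RNAs had ratios that overlapped between the groups. The Six3os1 to Six3 ratio was 0.583, 0.617, 0.620 and 0.616 in the controls and 0.597, 0.575, 0.682 and 0.698 in the knockdown, a log2 difference of 0.06 (exact two-sided permutation p = 0.429, adjusted over 6 ratios 0.789). The Vax2os to Vax2 ratio was 2.09 to 2.44 in the controls and 1.76 to 2.44 in the knockdown, so the antisense RNA exceeded its partner in all 8 libraries (exact two-sided permutation p = 0.543, adjusted 0.789). The Neat1 to Malat1 ratio was 0.00234 to 0.00297 and 0.00248 to 0.00451, with the highest value in knockdown 1 (exact two-sided permutation p = 0.371, adjusted 0.789). The smallest p that 4 against 4 libraries allow in this test is 0.0286. Levels of Six3 were 91.0 ± 8.72 and 85.7 ± 6.59 TPM (SD, n = 4) and those of Vax2 28.3 ± 2.29 and 29.7 ± 4.09 TPM.

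The 6 other tested lncRNAs at eye gene loci, most of them antisense, gave 3 positive and 3 negative log2 fold changes, and 0 passed the test. Otx2os1, opposite the photoreceptor and bipolar cell factor gene Otx2, was the most abundant of them at 34.9 ± 4.96 and 37.2 ± 2.47 TPM, and Crxos had 13.2 ± 1.33 and 12.3 ± 0.951 TPM (SD, n = 4). Sox2ot, which runs across Sox2 in the same direction, at 7.96 ± 0.424 and 9.21 ± 1.29 TPM (edgeR adjusted p = 0.936), and Zfhx2os, at 2.12 ± 0.879 and 2.81 ± 0.833 TPM (0.976 in edgeR), had the smallest p-values. Of 11 tested homeobox partner genes 0 passed, with a median log2 fold change of 0.01. Crx, the main photoreceptor homeobox gene, had 1141 ± 85.1 and 1126 ± 18.9 TPM, and Otx2 had 345 ± 8.01 and 363 ± 6.39 TPM (edgeR adjusted p = 0.972).

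Of 24 other known lncRNAs tested, 0 passed, with 17 positive and 7 negative log2 fold changes and a median of 0.05. The microRNA host Mir124a-1hg, known as Rncr3, was the most abundant at 834 ± 165 and 884 ± 87.8 TPM (SD, n = 4). The cytoplasmic RNA Oip5os1 (Cyrano) followed at 213 ± 5.23 and 219 ± 20.1 TPM, and Norad, which binds Pumilio proteins, had 212 ± 4.85 and 208 ± 14.3 TPM. Tunar, a neural lncRNA, had 23.5 ± 1.15 and 20.2 ± 0.465 TPM (edgeR adjusted p = 0.732), and Rmst, known from neurogenesis, 5.06 ± 0.671 and 6.55 ± 1.204 TPM (0.859 in edgeR). Among 19 tested genomic neighbours of the set 0 passed in edgeR. The smallest p-values there were those of the lens crystallin genes next to Miat on chromosome 5: Cryba4 at 0.635 ± 0.432 and 4.52 ± 3.67 TPM (log2 fold change 2.77, edgeR adjusted p = 0.303) and Crybb1 at 2.54 ± 0.786 and 8.41 ± 6.62 TPM (1.70, edgeR adjusted p = 0.488). DESeq2 called Cryba4 (adjusted p = 0.0122). Cryba4 had at most 0.908 TPM in the controls and at least 1.39 TPM in the knockdown. It thus passed the expression filter only through the group where it was high, so no conclusion is drawn from this call. The lens markers given above were also highest in knockdown 3, where Cryba4 and Crybb1 were highest, and their part in these values was not tested. Miat was highest in knockdown 4.

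The main variation in the set lay between libraries of the same group. Meg3, Snhg11, Miat and Malat1 rose and fell together: knockdown 4 and control 2 were the 2 highest libraries for each of them, and control 3, control 4 and knockdown 1 were the 3 lowest, except that for Malat1 knockdown 2 lay below control 3. For Meg3 and Snhg11 the order of the 8 libraries was identical, and the Meg3 to Snhg11 ratio, chosen after the values were seen, stayed between 0.729 and 0.823 while each RNA varied 2.57-fold and 2.34-fold. The Miat to Snhg11 ratio ran from 0.0661 to 0.0882, and the Malat1 to Snhg11 ratio from 5.79 to 8.71. Malat1 followed the same course over a narrower range, and Miat varied 2.14-fold. Six3os1 had the same 2 highest and 3 lowest libraries over a range of 1.31-fold. The profile of Malat1 was closer to that of Six3os1 (0.12 log2 units as root mean square difference) than to those of Miat (0.18) and Snhg11 (0.21). Tug1 and Rian were also lowest in control 3, control 4 and knockdown 1. Tug1 was highest in knockdown 4, over a range of only 1.14-fold, and Rian in knockdown 3. The order of libraries was thus not particular to the RNAs with a wide range.

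**Figure D3:**
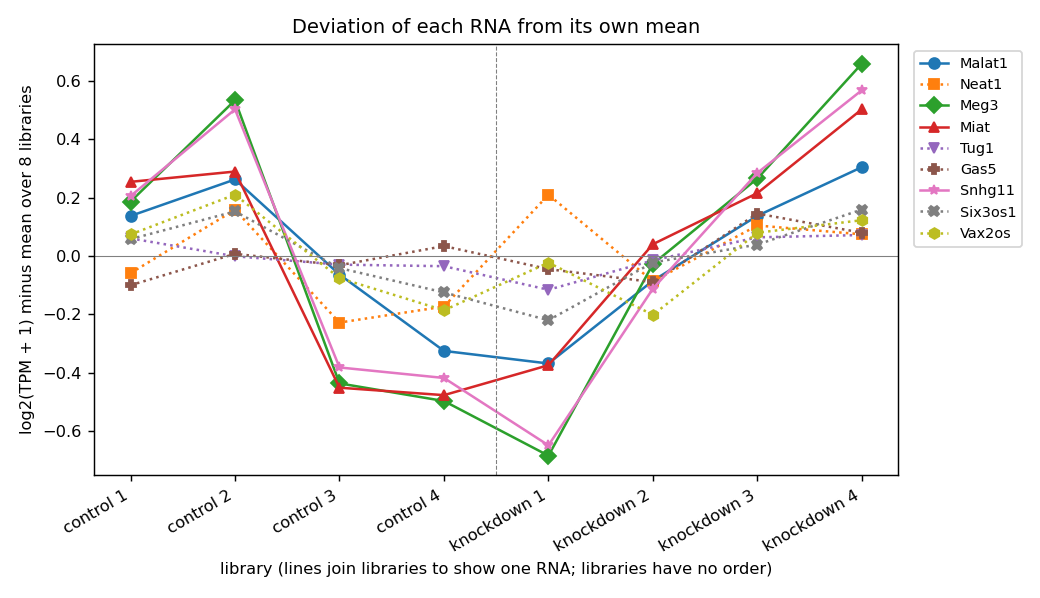
log2(TPM + 1) of each RNA minus its own mean over the 8 libraries (vertical axis), by library, with solid lines for Meg3, Snhg11, Miat and Malat1 and dotted lines for the other RNAs. The solid lines are high in control 2 and knockdown 4 and low in control 4 and knockdown 1, and no line separates the 2 groups at the dashed divider.

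The spread within groups was wide for these RNAs beside genes of like level. The SD of log2 CPM (counts per 1000000) within groups was 0.50 for Meg3, 0.46 for Snhg11, 0.41 for Miat and 0.24 for Malat1, against a median of 0.13 over all tested genes. Among the 1000 tested genes closest in TPM, Meg3 had a larger SD than 99.9%, Snhg11 than 99.6%, Malat1 than 97.1% and Miat than 95.4%. Tug1, by contrast, had an SD of 0.04, larger than 8.10% of genes of its level, and Gas5 0.09, larger than 44.6%. Neat1, at 0.21, had a larger SD than 14.9% of genes of its low level.

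**Figure D4:**
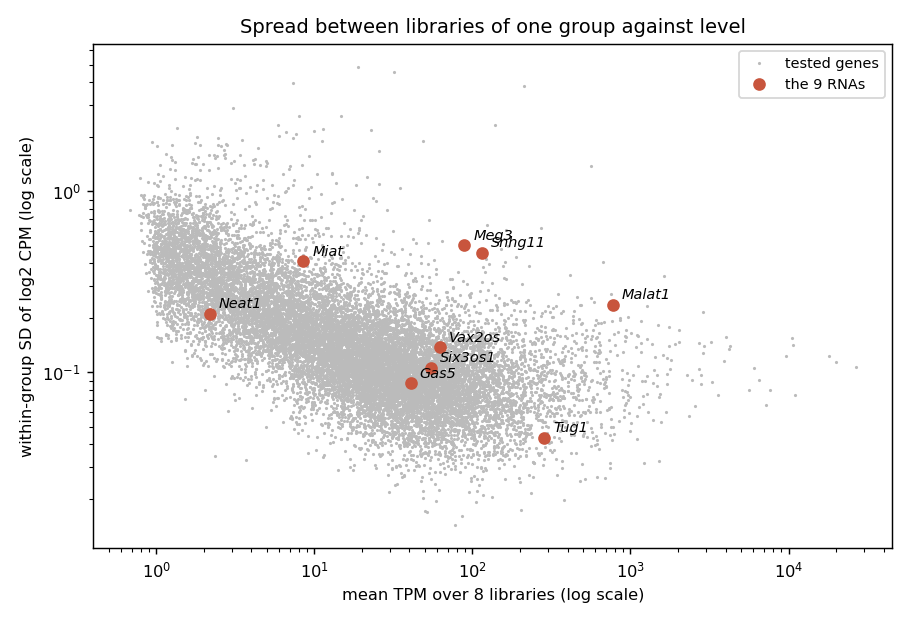
Within-group SD of log2 CPM (vertical, log scale) against mean TPM over 8 libraries (horizontal, log scale) for all tested genes (grey) and the 9 RNAs (red). Meg3 and Snhg11 stand at 0.50 and 0.46, above nearly all genes of their level, and Tug1 at 0.04 lies near the lower edge.

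Likeness of profile was measured as the root mean square difference of log2(TPM + 1) values, centred on each RNA's mean, over the 8 libraries, among 56 tested lncRNAs. Meg3 and Snhg11 were nearest to each other, at 0.06 log2 units, where Meg3 itself deviated by 0.47 from its mean. Next for both was Miat, at 0.16 from Meg3 and 0.14 from Snhg11. For Miat the nearest were Snhg11 (0.14) and Ftx (0.15), an RNA of the X inactivation centre, at 11.7 ± 2.86 and 12.9 ± 2.49 TPM in the groups. Malat1 was nearest to Snhg14 (0.10) and Mir124a-1hg (0.12). Tug1 was nearest to Norad (0.05) and Oip5os1 (0.05), and Gas5 to Oip5os1 (0.07) and Tug1 (0.08). Tug1 and Gas5 themselves deviated by only 0.06 and 0.08 from their means, so these distances are small by construction. Six3os1 was nearest to Kcnq1ot1 (0.06) and Snhg17 (0.07), Vax2os to Cerox1 (0.09) and Six3os1 (0.10), and Neat1 to Cerox1 (0.10) and Jpx (0.10). Kcnq1ot1 (mean 1.22 TPM), Cerox1 (1.74 TPM) and Neat1 (2.19 TPM) lie near the 1 added to TPM. That narrows their profiles, so distances to them depend in part on the added 1. All profiles come from the same 8 libraries, so a like profile is a description only.

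Messenger RNAs shared the course of Meg3 and Malat1, as a search chosen after the values were seen showed. Among 9746 tested genes with a conventional symbol and a mean of at least 10 TPM, lncRNAs included but the 9 RNAs of the set left out, the nearest to Meg3, to Snhg11 and to Miat was the messenger Leng8 (0.19, 0.17 and 0.11 log2 units), with 142, 176, 104 and 97.9 TPM in the controls and 108, 126, 140.0 and 174 TPM in the knockdown. The nearest to Malat1 was Rpgrip1, a photoreceptor ciliary gene, with 786, 806, 689 and 565 TPM in the controls and 549.9, 721, 803 and 915 TPM in the knockdown. Nktr, a gene for a cyclophilin with a serine- and arginine-rich tail, was among the 4 nearest to Malat1, at 66.6 to 98.35 TPM in the controls and 69.5 to 109.9 TPM in the knockdown. Among messengers that ran the other way, mt-Atp6 and Rps29 are given, also chosen after their values were seen. mt-Atp6 had 1296, 1268, 1765 and 2066 TPM in the controls and 2110, 1469, 1483 and 1502 TPM in the knockdown. Rps29 had 152, 103, 161.5 and 218 TPM in the controls and 214, 147, 157 and 141 TPM in the knockdown. Some other mitochondrial messengers did not share this course. Of these, mt-Atp8 and mt-Cytb were highest in knockdown 4, at 2148 and 11613 TPM, and mt-Co2 was highest in control 3, at 370.3 TPM. The summed share of all mitochondrially encoded messengers, given below, was highest in control 4 and knockdown 1, as for mt-Atp6.

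**Figure D5:**
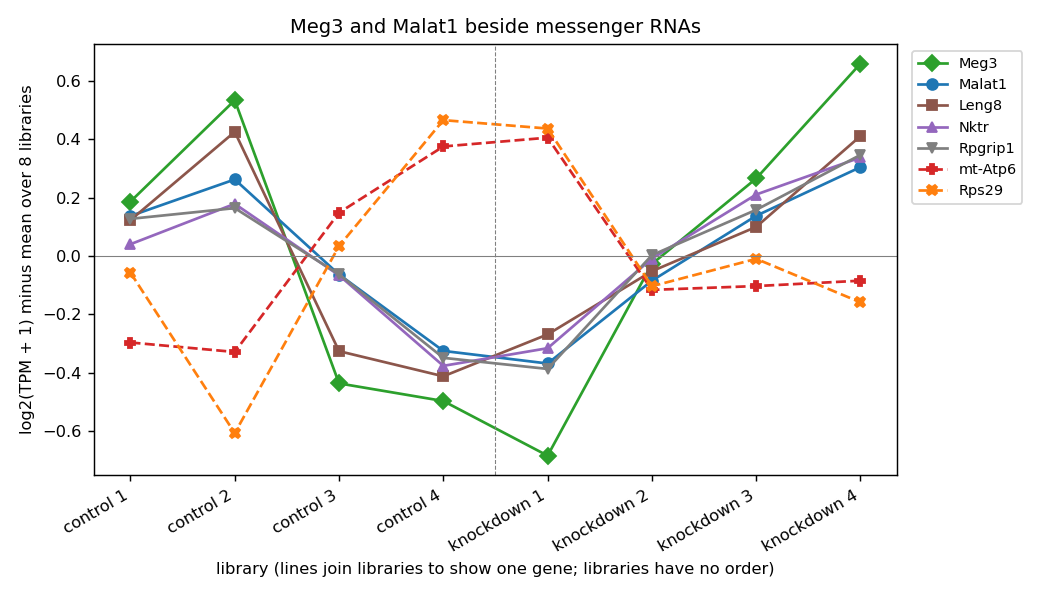
log2(TPM + 1) minus its mean over the 8 libraries (vertical axis) by library for Meg3, Malat1 and the messengers Leng8, Nktr and Rpgrip1 (solid) and for mt-Atp6 and Rps29 (dashed). The dashed lines are highest in control 4 and knockdown 1, where Meg3 and Malat1 are low.

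Summed measures of the libraries are given beside these RNAs. The 13 mitochondrially encoded messengers took 3.15% to 3.83% of counts, with the highest shares in control 4 (3.83%) and knockdown 1 (3.76%) and the lowest in control 2 (3.15%) and knockdown 3 (3.17%). Knockdown 4, highest in Meg3, had 3.64%. The 24 genes of the ribosomal protein and translation list took 0.670% of counts in knockdown 4 and 0.687% in control 2, and 0.795% in control 4 and 0.824% in knockdown 1. Amacrine markers, 1 of several marker lists, summed to 469 TPM in knockdown 1, 558 TPM in control 4 and 613 to 621 TPM in knockdown 4 and control 2. Ganglion cell markers took another course. They summed to 1118 TPM in knockdown 1, but to 1504 and 1471 TPM in controls 3 and 4, against 1399 TPM in control 2 and 1353 TPM in knockdown 4. The mitochondrial list itself had 0 of 13 genes past the test, with mt-Co1, the most abundant, at 26865 ± 1074 and 26642 ± 1484 TPM (SD, n = 4), mt-Cytb at 10532 ± 902 and 10620 ± 892 TPM, and the smallest p-values in mt-Atp8 (1612 ± 175 and 1878 ± 218 TPM, edgeR adjusted p = 0.918) and mt-Co2 (309 ± 64.8 and 233 ± 115 TPM, edgeR adjusted p = 0.989). The part of these library measures in the spread of Meg3, Snhg11, Miat and Malat1 was not tested.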

How the data were processed

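Retinal RNA of 8 libraries (total RNA, TRIzol) was sequenced on a NovaSeq X Plus as 150-base read pairs, per the labels' protocols. Per the submitters' processing notes, Bowtie 0.12.2 and the build mm9 were used, in roles not given. Although the deposited table bears the name TPM, its values are estimated counts: they sum to between 16.03 and 21.4 (in units of 1000000) per library. No source used here names the estimating tool, the strand setting or any poly(A) selection. The other column used is a gene length in bases.

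TPM came from the unrounded estimates and that length, and the tests used rounded estimates. Genes reaching 1 TPM in 4 or more libraries were tested with edgeR 4.0.16 (quasi-likelihood, TMM) in R 4.3.3, Benjamini-Hochberg adjusted over all tested genes and called at 0.05. An SE is the size of the log2 fold change divided by the root of F, and 95% intervals use 6 residual degrees of freedom. Ratios within libraries were compared by exact two-sided permutation tests over 70 assignments. The fit was tested on simulated data. DESeq2 1.42.0, limma 3.58.1, other scalings, filters and covariates and leaving out each library were alternatives. Positions are from GENCODE M21 (GRCm38), which held 91.3% of the identifiers. Members and lists were chosen with earlier results of these data known. Named genes were the members, Mm2pr, the ratio partners, the 2 most abundant genes and the 2 with the smallest p of each list, and the 2 nearest profiles; genes named by another choice are said to be chosen after their values were seen. A gene that this rule names is not reported here. A count of 3 corresponds to 0.140 to 0.187 counts per 1000000, a floor that covers counting error only.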

Additional observations from a re-analysis of the deposited data

Results flagged for a closer look

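Among 30 groups of 4 values tested for an outlying library (9 RNAs and 6 ratios in 2 groups), 1 stood out, where chance flags about 1 in 20. In the controls the Six3os1 to Six3 ratio of control 1, at 0.583, lay below the 0.616 to 0.620 of the other controls, with a gap of 0.883 of the group's whole log2 range, more than Dixon's 95% critical value. The ratios of the knockdown libraries, 0.575 to 0.698, span that value.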

How the results depend on the processing

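No member passed the test under any of 17 alternatives to the edgeR fit, and no ratio under the 10 alternatives run for ratios. Of these 10, the replicate block, with 4 pairs, cannot give a p below 0.125. In the others a fully separated ratio could not pass alone after adjustment over 6 ratios, so the lack of a passing ratio decides little. The number of genes called was 10, against 45 with DESeq2, 0 with limma on log2(TPM + 1) and 0 with a pseudocount of 0.1, 1 with a mean of at least 5 TPM and 157 without a filter; leaving out 1 library gave 0 to 58 (0 without control 1 and without control 2, 58 without control 3). Calls in the fixed lists went from 0 to 1 with DESeq2 (Cryba4, which passed the filter only through the knockdown group). The replicate block gave 11 calls and 0 members. Correlations of same-numbered libraries were -0.112 to 0.00910, within the -0.126 to 0.139 of differently numbered ones. They show no pairing by number, but cannot exclude a pairing with a small effect. Of 152 member fold changes under the alternatives, 26 changed sign, in 6 RNAs, none past the threshold. Tug1 became 0.0025 with limma at either pseudocount, 0.0041 with library totals alone (Malat1 0.00023) and 0.0012 with a mean of at least 5 TPM, where Neat1 was not tested. Malat1 became 0.0064 with a Ddx3y covariate. The Gas5 to Snhg11 log2 ratio became 4.5e-05 from counts + 1 without length. Leaving out 1 library gave log2 fold changes of -0.11 to 0.088 for Malat1, -0.020 to 0.017 for Tug1, -0.061 to 0.049 for Vax2os, -0.080 to 0.024 for Six3os1, -0.11 to 0.33 for Meg3, -0.14 to 0.24 for Snhg11, 0.04 to 0.34 for Miat, 0.13 to 0.33 for Neat1 and 0.01 to 0.08 for Gas5. It gave log2 ratios of -0.0100 to 0.075 for Tug1 to Morc2a, -0.20 to 0.16 for Gas5 to Snhg11, -0.043 to 0.29 for Meg3 to Rian and -0.15 to 0.0094 for Vax2os to Vax2. The cause of these changes was not tested. Differences smaller than the 95% intervals given for each RNA were not detectable with 4 libraries a group, and larger ones could also be missed. Calls used p-values adjusted over all tested genes, while the intervals carry no such adjustment. The edgeR log2 fold change intervals of Pspc1 (0.04 to 0.36) and Snhg5 (0.03 to 0.50) lay above 0. So did those of Rmst (0.01 to 0.72), Cryba4 (1.10 to 4.43) and Crybb1 (0.50 to 2.89). That of Tunar (-0.41 to -0.04) lay below 0. None of these genes was called in edgeR (edgeR adjusted p = 0.664 for Pspc1 and 0.822 for Snhg5, the others given above).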
